A study of Mus musculus with 14 samples.

Results

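The genes described here are 31 genes of the unfolded protein response and of protein folding in the endoplasmic reticulum (ER), chosen by symbol from a table of 52459 genes. All 31 were present in the table, and all 31 passed the filter on low counts. RNA was sequenced from cells of dispersed pancreatic islets of male C57BL/6J mice, an inbred laboratory strain, aged 7 months, with no genetic change or drug named in the labels. A cell sorter had parted the cells by their beta-galactosidase activity at acidic pH, a lysosomal activity used as a marker of senescence, into 7 positive and 7 negative libraries. Both groups carry the replicate numbers 1 to 7. How many animals went into a library, and whether a number marks cells of the same animals, is not given in the sources used here, and the p-values below therefore speak only of variation among the 14 libraries.

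Secretory cells such as the beta cell, which makes and folds large amounts of proinsulin in the ER, keep a high folding capacity. When unfolded protein builds up in the ER, 3 sensors in its membrane act. IRE1 (encoded by Ern1) splices the RNA of Xbp1, so that XBP1 protein can induce genes of folding and of ER-associated degradation. ATF6 is cut in the Golgi and its freed part induces chaperones. PERK (Eif2ak3) phosphorylates the translation factor eIF2, which slows protein synthesis and raises translation of ATF4, an inducer of amino acid supply and stress genes. Kinases outside the ER also phosphorylate eIF2, so ATF4 targets respond to amino acid shortage and other stresses too. Both ATF6 and the splicing of Xbp1 are controlled after transcription, which counts per gene do not measure. Many chaperone genes respond to ATF6 and to XBP1 alike, so the placing of a gene in either branch here is a convention. The placing in the ATF4 branch is a convention too, for instance for Ero1l, which also responds to low oxygen.

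The DNA in front of the genes is shown here by branch. The genes were listed as known members of this response, so the share that carries its sites is a description and not a test. RefSeq promoters (GRCm38.p6) were found for 28 of the 31 members, and the 250 bases before each start site were searched on both strands. The ER stress element (ERSE), CCAAT and CCACG with 9 bases of any kind between them, is a site that ATF6 and XBP1 are known to use together with the factor NF-Y. It stood before 9 of the 28 members, 32.1%, against 35 of 27025 genes with a promoter, 0.13%. It was found in 4 of 8 promoters of the ATF6 branch (Calr, Creld2, Hsp90b1, Hspa5), 4 of 7 of the XBP1 branch (Derl3, Dnajc3, Pdia6, Syvn1), 1 of 2 of the calnexin cycle (Canx) and 0 of 6 of the ATF4 branch. The shorter ERSE-II, ATTGG, any base and CCACG, which shares its CCACG end with the ERSE, stood before Herpud1 and before 10 genes in all, 0.037%. The CARE site, TTNCATCA, which ATF4 binds with a C/EBP partner, stood before Asns, Chac1 and Herpud1, 10.7% of the members' promoters against 3.91% of all. The XBP1 site core TGACGTGG was in 0 of the 28 windows and in 0.603% of all genes. The sites below are printed in the direction of the gene, with the match in capitals. Hsp90b1, Calr and Asns lie on the minus strand of the genome and the others on the plus strand. A gene whose capitals begin with CGTGG or TGATG carries the site on the opposite strand.
Hspa5, ERSE, chr2:34772020-34772048: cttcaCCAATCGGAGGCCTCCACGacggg
Hsp90b1, ERSE, chr10:86705618-86705676: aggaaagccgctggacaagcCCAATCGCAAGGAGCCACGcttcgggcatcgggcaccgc
Hsp90b1, ERSE, chr10:86705513-86705571: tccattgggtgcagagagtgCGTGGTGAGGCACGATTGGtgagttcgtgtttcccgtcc
Calr, ERSE, chr8:84847055-84847113: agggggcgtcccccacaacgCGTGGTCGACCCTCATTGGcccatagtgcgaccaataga
Pdia6, ERSE, chr12:17266471-17266529: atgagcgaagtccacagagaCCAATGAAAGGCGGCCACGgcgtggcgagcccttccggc
Dnajc3, ERSE, chr14:118937807-118937865: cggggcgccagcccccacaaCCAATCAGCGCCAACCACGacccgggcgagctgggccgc
Herpud1, ERSE-II, chr8:94386357-94386407: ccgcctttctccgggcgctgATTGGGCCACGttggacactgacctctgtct
Herpud1, CARE, chr8:94386297-94386344: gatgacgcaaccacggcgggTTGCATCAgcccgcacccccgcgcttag
Asns, CARE, chr6:7693214-7693243: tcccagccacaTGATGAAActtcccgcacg
Chac1, CARE, chr2:119351029-119351076: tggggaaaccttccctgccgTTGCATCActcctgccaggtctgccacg

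Hspa5 and Hsp90b1 thus hold the same type of element at different distances from the RefSeq start. Its last base lies 47 bases before that start in Hspa5, and 194 and 89 bases before it in Hsp90b1. In the GENCODE M21 annotation, Hspa5 and Asns begin farther upstream, so their printed sites lie inside the annotated gene and touch an annotated exon. Herpud1 was the member with both a chaperone-type and an ATF4-type site. These are matches of letters only, and no binding was measured.

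Library totals ran from 11060144 to 24577025 counts. Levels are given as CPM, counts scaled to the library total. Summed levels of 10 beta cell markers ran from 103460 to 154430 CPM in negative and from 99425 to 129660 CPM in positive libraries. All 10 beta cell markers had estimates below 0 (median log2 fold change −0.25); 0 were called without the block, and 5 fell with it (Ins1, Slc30a8, Mafa, Pdx1 and Nkx6-1). The delta cell genes Sst (log2 fold change 2.58, adjusted p = 0.00562) and Hhex (2.50, adjusted p = 0.00202) rose in both fits and were the 2 called of 9 alpha, delta and PP cell markers. Other cell types moved with the groups: 10 endothelial markers summed to 4.45 to 62 CPM in negative and 339 to 1169 CPM in positive libraries, and 10 macrophage markers to 17 to 22.2 and 70.9 to 585 CPM. Positive 6 and 7 had the most macrophage RNA, 585 and 412 CPM, against 70.9 to 99.4 CPM in positive 1 to 5. The 15 acinar markers summed to 165 to 1648 CPM in negative and 38.8 to 982 CPM in positive libraries. None of these markers was at 0 in all libraries of a group. Negative 3 stood apart in fibroblast markers, at 1445 CPM. In sorted bulk cells, fewer cells of a type and less RNA per cell cannot be told apart.

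Per kilobase of exon, the chaperone genes Hspa5 and Hsp90b1 had the highest levels of the 31. Hspa5, which encodes BiP, the main ER chaperone (chromosome 2, 34771970 to 34777547, GRCm38), stood at 556 ± 47.8 CPM per kilobase in negative cells (SD, n = 7), followed by Hsp90b1, the ER form of HSP90, at 418 ± 22.3. The next were Pdia3 at 324 ± 12, Calr at 303 ± 32, Atf4 at 291 ± 29.4 and Dnajb9 at 291 ± 46.4, neighbours whose spreads overlap. Derl3, a degradation factor known from exocrine and plasma cells, was the lowest, at 3.14 ± 0.44, below Syvn1 at 25.1 ± 2.59 CPM per kilobase. The order of the 7 most abundant members was the same in positive cells.

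Between positive and negative cells, differences in these genes were small, and the 7 members that passed did so only in a fit within pairs. With group as the only term, 0 of the 31 members passed edgeR's quasi-likelihood test at a Benjamini-Hochberg adjusted p of 0.05, against 8.03% of 16350 genes tested (6.4% higher and 1.63% lower). Of the 31, 2 had an unadjusted p below 0.05 (Atf4 and Atf6), and DESeq2 called 0 of the 31 as well, with 3 at an unadjusted p below 0.05. Libraries with the same replicate number varied together, less clearly for numbers 3 and 7, so the number was also fitted as a block. That fit compares the groups within pairs. In that fit 7 members rose in positive cells, 22.6% of the 31, and 0 fell, against 19.6% of all genes called (11.8% higher and 7.77% lower). The 7 were Atf6, Ddit3, Trib3, Ero1l, Asns, Sesn2 and Herpud1. By the placing used here, 4 of them (Trib3, Ero1l, Asns and Sesn2) are in the ATF4 branch. A level of 5 or more in average log2 CPM was reached by 30 of the 31 members and by 6078 genes, of which 11.5% were called higher and 8.77% lower with the block, and 2.93% and 1.66% without it. The positive library was higher in all 7 pairs for 6 members (19.4%), against 11.1% of all genes and 12% of those 6078, and lower in all 7 for 0 members, against 6.93% of all genes. The median log2 fold change of the 31 members was 0.12 in either fit, and that of all genes was 0.00. The median SE of a member's log2 fold change was 0.119 without the block and 0.0627 with it. The groups overlapped for every member.

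**Figure D1:**
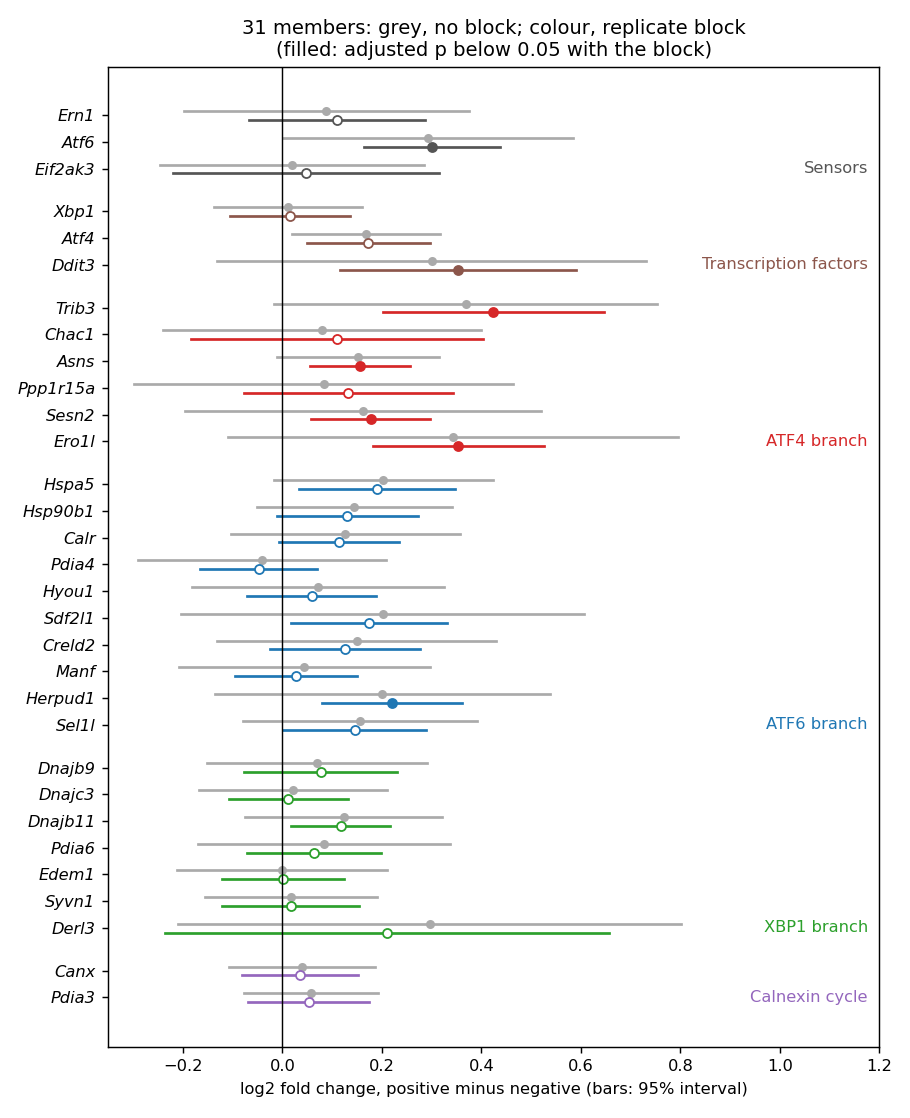
Log2 fold change (horizontal axis, positive minus negative) of the 31 members, ordered by role, with 95% intervals. Grey points and bars come from group alone, where 0 of 31 passed. Coloured ones come from the blocked fit, where the 7 filled points passed (adjusted p below 0.05). They include 4 of 6 in the ATF4 branch and 1 of 10 in the ATF6 branch, against 11.8% of all genes called higher.

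Of the 3 sensors, Atf6 rose within pairs and the other two did not pass the test. Atf6 (chromosome 1, 170704674 to 170867771, minus strand) ran from 199 to 375 CPM with a median of 331 in negative libraries, and from 283 to 466 CPM with a median of 394 in positive libraries. The ranges overlapped, but the positive library was higher in all 7 pairs. The log2 fold change was 0.29 ± 0.14 (SE, adjusted p = 0.235) without the block and 0.30 ± 0.06 (adjusted p = 0.00663) with it. The call held whichever pair was left out (adjusted p 0.00631 to 0.021). For the log2 fold change of Atf6 it also held without the 4 libraries numbered 6 and 7 (adjusted p = 0.037), but not without those numbered 1, 6 and 7 (adjusted p = 0.0661).

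Ern1 ran from 425 to 919 CPM (median 714) in negative and from 669 to 952 CPM (median 739) in positive libraries. Negative 1 was the lowest library, and the other 6 negative libraries lay within the positive range. Its estimate was 0.11 ± 0.08 with the block (adjusted p = 0.375). Eif2ak3 ran from 174 to 374 CPM (median 301) in negative and from 267 to 330 CPM (median 300) in positive libraries. It was higher in only 2 of 7 pairs, and its log2 fold change with the block was 0.05 ± 0.12 (adjusted p = 0.821). Without the pair numbered 1 the estimate for Eif2ak3 turned to −0.08 (adjusted p = 0.25).

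Among the transcription factors, Ddit3 rose within pairs, while Atf4 and Xbp1 did not pass the test. Atf4 (chromosome 15, 80255184 to 80257541) ran from 596 to 790 CPM (median 701) in negative and from 721 to 825 CPM (median 779) in positive libraries. Each of the 7 pairs had more Atf4 on the positive side, by 0.016 to 0.381 on the log2 scale, and its log2 fold change was 0.17 ± 0.07 without (adjusted p = 0.175) and 0.17 ± 0.06 with the block (adjusted p = 0.0525). ATF4 is known to be controlled mainly at translation, which RNA levels do not show.

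Ddit3, which encodes CHOP, a factor that ATF4 induces and that promotes cell death under lasting stress, ran from 157 to 414 CPM (median 352) in negative libraries. In positive libraries it ran from 306 to 525 CPM (median 398). The lowest values were those of negative 1 and 2, at 157 and 208 CPM, and the pair numbered 7 went the other way. The log2 fold change was 0.30 ± 0.20 (adjusted p = 0.431) and, with the block, 0.35 ± 0.11 (adjusted p = 0.0439). That call was lost when any pair other than 1 or 7 was left out (adjusted p up to 0.119). Xbp1 ran from 383 to 530 CPM (median 462) in negative and from 427 to 522 CPM (median 464) in positive libraries. Its log2 fold change with the block was 0.02 ± 0.06 (adjusted p = 0.879, 95% interval −0.11 to 0.14), and it was higher in 2 of 7 pairs. Counts per gene pool the spliced and unspliced forms of Xbp1.

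In the ATF4 branch, 4 of 6 members rose with the block (66.7%, against 11.8% of all genes) and 2 did not pass. Without the block 0 of the 6 were called. An unadjusted p below 0.05 was reached by 0 of them without the block and by 4 with it. Trib3, a pseudokinase induced by ATF4 and CHOP (chromosome 2, 152337422 to 152344032), ran from 109 to 252 CPM (median 205) in negative and from 196 to 280 CPM (median 269) in positive libraries. Negative 1 and 2 were lowest, at 116 and 109 CPM, and positive 1 and 2 were the lowest of their group, at 213 and 196 CPM. The positive library was higher in all 7 pairs, with log2 ratios of 0.88 and 0.84 in pairs 1 and 2 and 0.12 to 0.39 in the rest. In log2 terms the change was 0.37 ± 0.18 (adjusted p = 0.259) without and 0.42 ± 0.10 (adjusted p = 0.0159) with the block, and the blocked call held whichever pair was left out.

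Ero1l, the oxidase that re-oxidises protein disulfide isomerase and is known to respond to CHOP and to low oxygen, ran from 105 to 271 CPM (median 163) in negative libraries. In positive libraries it ran from 149 to 285 CPM (median 172). Both libraries numbered 1 were high, at 271 and 285 CPM. Ero1l followed another course over the pairs than Trib3: its log2 ratios were 0.07 and −0.01 in pairs 1 and 2 and 0.27 to 0.60 in pairs 3 to 7. The log2 fold change was 0.34 ± 0.21 (adjusted p = 0.384) and, with the block, 0.35 ± 0.08 (adjusted p = 0.00998), a call that held whichever pair was left out but not without both pairs 6 and 7 (log2 fold change of Ero1l 0.26, adjusted p = 0.0818).

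Asns, asparagine synthetase, ran from 292 to 387 CPM (median 337) in negative and from 337 to 411 CPM (median 370) in positive libraries. All 7 pairs had more Asns on the positive side, with 0.16 ± 0.05 on the log2 scale (adjusted p = 0.034 with the block, 0.275 without). Sesn2, a stress-induced inhibitor of mTORC1 signalling, ran from 164 to 327 CPM (median 302) in negative and from 211 to 382 CPM (median 317) in positive libraries. It was higher in 6 of 7 pairs, with a log2 fold change of 0.18 ± 0.05 (adjusted p = 0.0412 with the block, 0.633 without). With 1 pair left out, Asns kept its call only without pair 3, and Sesn2 only without pair 7 (adjusted p up to 0.0924 and 0.143).

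Ppp1r15a, which encodes GADD34, the phosphatase subunit that reverses eIF2 phosphorylation, ran from 284 to 709 CPM (median 641) in negative and from 458 to 693 CPM (median 633) in positive libraries. It was higher in 3 of 7 pairs, and its blocked log2 fold change was 0.13 ± 0.09 (adjusted p = 0.364). Chac1, a glutathione-degrading enzyme and ATF4 target, ran from 158 to 335 CPM (median 285) and from 235 to 333 CPM (median 265), also higher in 3 of 7 pairs (0.11 ± 0.13, adjusted p = 0.601). For both genes the pair numbered 1 had the largest ratio, 0.76 and 0.90 on the log2 scale, and negative 1 was the lowest library of all.

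**Figure D2:**
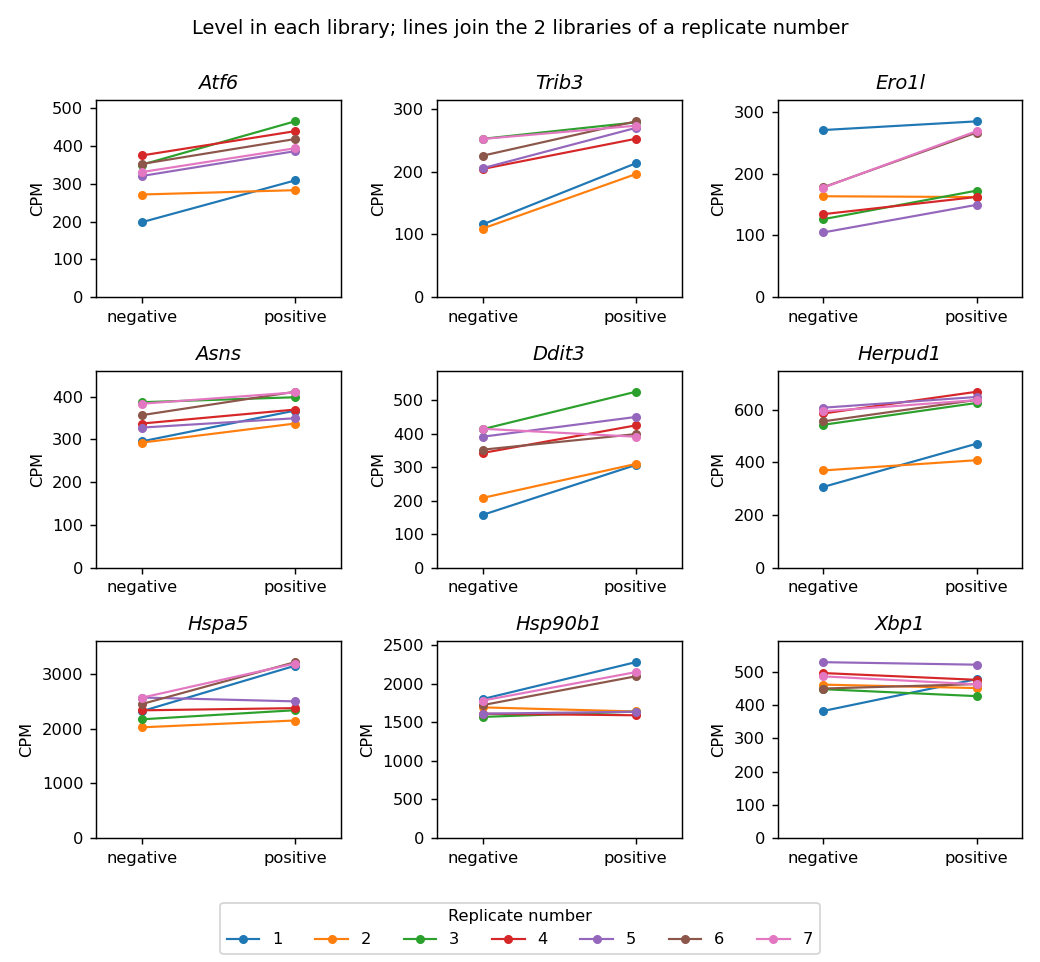
Level (CPM, vertical axis from 0) of 9 members in each library, with a line from the negative to the positive library of each replicate number. Atf6, Trib3, Asns and Herpud1 go up in all 7 pairs, while Hspa5 and Hsp90b1 reach their highest levels in positive 1, 6 and 7 and Xbp1 stays between 383 and 530 CPM.

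In the ATF6 branch, 1 of 10 members rose with the block (10%, against 11.8% of all genes), and the classical chaperones did not pass. Of the 10, 0 had an unadjusted p below 0.05 without the block and 4 with it. Hspa5 ran from 2028 to 2575 CPM (median 2340) in negative and from 2153 to 3223 CPM (median 2504) in positive libraries. Positive 1, 6 and 7 stood at 3157, 3223 and 3198 CPM, above every negative library, and positive 2 to 5 lay within the negative range. The estimated change was 0.20 ± 0.10 (adjusted p = 0.279) without the block and 0.19 ± 0.07 (adjusted p = 0.0873, 95% interval 0.03 to 0.35) with it. Hsp90b1 ran from 1571 to 1803 CPM (median 1695) and from 1592 to 2282 CPM (median 1642), with 0.13 ± 0.06 under the block (adjusted p = 0.181). Its 3 highest libraries were again positive 1, 6 and 7. Calr, the calcium-binding lectin chaperone calreticulin, had a blocked log2 fold change of 0.11 ± 0.05 (adjusted p = 0.173). About 10.3% of the exon bases of Hsp90b1 are shared with genes on the other strand, whose reads cannot be told apart here because the strand setting is not known.

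Herpud1, a component of the ER degradation complex, was the ATF6 branch member that rose. It ran from 306 to 607 CPM (median 556) in negative and from 408 to 668 CPM (median 636) in positive libraries. Negative 1 and 2 and positive 1 and 2 were the lowest 4 libraries, and the positive library was higher in all 7 pairs. The log2 fold change was 0.20 ± 0.16 (adjusted p = 0.514) and, with the block, 0.22 ± 0.06 (adjusted p = 0.0327). The call held without pair 1, 3 or 7 and was lost without pair 2, 4, 5 or 6 (adjusted p up to 0.0709). Of the 8 ATF6 branch promoters searched (Hyou1 and Manf had none), that of Herpud1 held the CARE site printed above. Chac1 has this site and did not pass, and Trib3, Sesn2 and Ero1l rose without it in the window. The part of the site in the change of Herpud1 was not tested.

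The remaining ATF6 branch members had blocked log2 fold changes of −0.05 to 0.17 and did not pass. They were Sdf2l1 (0.17 ± 0.07) and Creld2 (0.13 ± 0.07), small ER proteins induced by stress, Sel1l (0.15 ± 0.07), the adaptor of the degradation ligase, Hyou1 (0.06 ± 0.06), a large chaperone, and Manf (0.03 ± 0.06), a secreted ER factor that protects beta cells. Pdia4, a disulfide isomerase, was lower in the positive library of 5 of 7 pairs (−0.05 ± 0.05, adjusted p = 0.579). The difference between Pdia4 and the chaperones Hspa5 and Hsp90b1 was not tested.

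In the XBP1 branch, 0 of 7 members passed in either fit, against 8.03% of all genes without the block and 19.6% with it. An unadjusted p below 0.05 was reached by 0 without the block and by 1 (Dnajb11) with it, and DESeq2 called 0. Dnajb9, a BiP co-chaperone strongly induced by XBP1, ran from 562 to 915 CPM (median 726) in negative and from 603 to 884 CPM (median 780) in positive libraries. It was higher in 4 of 7 pairs, with 0.08 ± 0.07 under the block (adjusted p = 0.484, 95% interval −0.08 to 0.23). Edem1, a mannosidase of ER-associated degradation, was at 165 ± 22.6 CPM in both groups (SD, n = 7 each). Syvn1, the degradation ligase, and Dnajc3, an inhibitor of PERK, had blocked log2 fold changes of 0.02 ± 0.06 and 0.01 ± 0.05. Dnajb11, a BiP co-chaperone, had ratios above 0 in each of the 7 pairs, with 0.12 ± 0.05 (adjusted p = 0.0967). Pdia6 had 0.06 ± 0.06 and Derl3, the member with fewest reads, 0.21 ± 0.20. Derl3 reached 13.8, 10.5 and 9.28 CPM in positive 1, 6 and 7 and was between 4.41 and 7.41 CPM in all the other libraries. Acinar markers, from cells known to make Derl3, summed to 982, 45.9 and 66.5 CPM in positive 1, 6 and 7. Their highest sums, 1648 and 1458 CPM, were in negative 5 and 1, where Derl3 stood at 4.92 and 5.76 CPM. The part of acinar cells in the level of Derl3 was not tested.

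Canx, the membrane lectin chaperone calnexin, and Pdia3, its partner isomerase, did not pass in either fit (0 of 2, none at an unadjusted p below 0.05, and 0 by DESeq2). Canx averaged 797 ± 35.7 CPM on the negative and 819 ± 84.6 CPM on the positive side, and Pdia3 1016 ± 37.7 and 1056 ± 92 CPM (SD, n = 7 each). Their blocked log2 fold changes were 0.03 ± 0.05 (adjusted p = 0.692) and 0.05 ± 0.06 (adjusted p = 0.546).

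Set side by side, the branches had median blocked log2 fold changes of 0.17 for ATF4 (6 genes), 0.13 for ATF6 (10 genes) and 0.06 for XBP1 (7 genes), against 0.00 for all genes. Pair by pair, the ATF4 median was above 0 in all 7 pairs, from 0.043 in pair 7 to 0.54 in pair 1. The ATF6 median was 0.36, 0.23 and 0.15 in pairs 1, 6 and 7 and between −0.044 and 0.068 in pairs 2 to 5. The XBP1 median was 0.36 in pair 1, 0.091 and 0.082 in pairs 6 and 7, and between −0.15 and 0.042 in pairs 2 to 5. Without the 6 libraries numbered 1, 6 and 7, an alternative added after the data were seen, 12 of the 31 members turned in direction, all of them uncalled, and Ddit3 and Sesn2 were the 2 members called. The difference between branches was described and not tested.

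**Figure D3:**
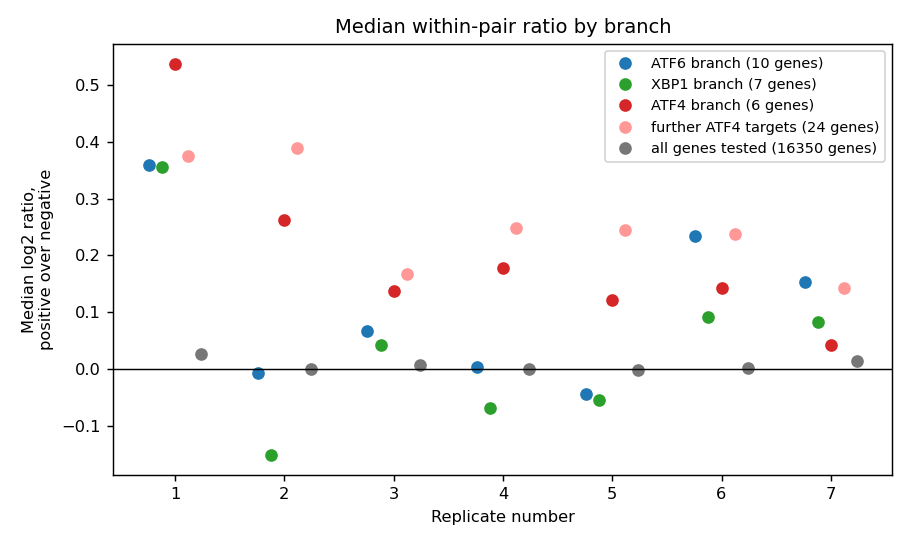
Median log2 ratio of positive over negative level (vertical axis) for the members of each branch in each pair of libraries with the same replicate number (horizontal axis; the numbers have no order). The ATF4 branch is above 0 in all 7 pairs, and the ATF4, ATF6 and XBP1 branches are each farthest above 0 in pair 1.

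The pair numbered 1 stood apart for the stress genes. In it, 30 of the 31 members were higher in the positive library, against 13 to 28 in the other pairs. Negative 1 was the lowest negative library for 7 of the 12 sensors, transcription factors and ATF4 branch members (58.3%), against 23.8% of all genes tested. It was the lowest for 4 of the 19 members of the ATF6 and XBP1 branches and the calnexin cycle (21.1%). Among the 24 further ATF4 targets described below, it was the lowest for 5 (20.8%). Negative 1 was picked after the values were seen, so these counts are a description. The same library had the highest sum of 16 immediate early genes, which respond within minutes to handling, at 9102 CPM, against 3481 to 6680 CPM in the other negative and 3920 to 7009 CPM in the positive libraries. Of these 16 genes, 1 was called higher without the block (Ier3, 6.25%, against 6.4% of all genes) and 0 lower (against 1.63%). Their median log2 fold change was −0.04. With the block 2 were called higher (Ier3 and Fosl2, 12.5%, against 11.8%) and 1 lower (Fosb, 6.25%, against 7.77%), with a median of 0.03. Their part in the result was not tested.

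A wider set of 24 ATF4 targets, none of them among the 31 members and chosen with earlier results of these data known, was mostly higher in positive cells within pairs. Without the block 2 of 24 rose and 0 fell (8.33%, against 6.4% of all genes called higher), and with it 17 of 24 rose and 0 fell (70.8%, against 11.8%). Their median log2 fold change was 0.27 without and 0.29 with the block. In each of the 7 pairs, 21 to 23 of the 24 were higher in the positive library, and 17 of the 24 were higher in all 7 pairs, against 11.1% of all genes.

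Ddit4, an inhibitor of mTORC1 signalling, rose in both fits, from 65.6 ± 9.93 to 90.7 ± 12.1 CPM (SD, n = 7 each). Its log2 fold change was 0.46 ± 0.10 (adjusted p = 0.00781), and the call held whichever single library was left out. Without the 4 libraries numbered 6 and 7 the log2 fold change of Ddit4 was 0.42, and the call was lost without the block (adjusted p = 0.0814) and held with it (adjusted p = 0.00945). Slc7a11, the cystine transporter, also rose in both, from 43.5 ± 15.7 to 90 ± 31.9 CPM, and it was the target whose groups did not overlap (positive higher, as for 3.5% of all genes). Negative libraries ran from 20.7 to 56.5 CPM and positive ones from 57 to 137 CPM, with positive 6 and 7 highest. Its log2 fold change was 1.05 ± 0.28 (adjusted p = 0.0308). Leaving out negative 1 or 5, or positive 1, 6 or 7, ended that call for Slc7a11 (adjusted p up to 0.0735). With the block it ended without pair 2, 6 or 7 (adjusted p up to 0.063) and without 6 and 7 together (log2 fold change 0.98, adjusted p = 0.156).

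The targets called with the block covered amino acid transport, serine and one-carbon synthesis, and stress control. The largest were Stc2, a secreted glycoprotein (1.14 ± 0.19, adjusted p = 0.00192), and Slc7a11 (1.07 ± 0.23). Next came Cth, a cysteine-making enzyme (0.80 ± 0.17), and Slc7a3, a transporter of cationic amino acids (0.64 ± 0.11). Few reads underlie Stc2 (2.46 CPM in negative and 5.45 CPM in positive libraries) and Cth (1.97 and 3.35 CPM). The enzymes of serine synthesis Phgdh, Psat1 and Psph, in the order of the pathway, had 0.21 ± 0.05, 0.30 ± 0.04 and 0.32 ± 0.05. The one-carbon enzymes Shmt2 and Mthfd2 had 0.22 ± 0.06 and 0.26 ± 0.05. The transporter subunits Slc3a2 and Slc7a5, which form 1 carrier of large neutral amino acids, had 0.31 ± 0.06 and 0.21 ± 0.05. The others called were Ddit4, Nupr1, Eif4ebp1, Gpt2, Vldlr and Aldh18a1. Those not called were Atf3, Atf5, Cebpb, Cebpg, Slc7a1, Pycr1 and Fgf21, of which Atf5 (−0.01) and Pycr1 (−0.10) had estimates below 0. The CARE site stood before 6 of the 20 targets with a promoter, 30%, among them Slc7a11, Nupr1 and Atf3, against 3.91% of all genes. The list was made of known ATF4 targets, so this share too is a description.

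Markers of other cells differed between the same groups: 10 of 10 macrophage and 10 of 10 endothelial markers rose (median log2 fold change 6.10 and 4.76), and 5 of 15 acinar markers fell (median −2.04; 13 of 15 with the block). With the beta and delta cell genes named above, these markers moved with the same contrast as the ATF4 targets. Without the 4 libraries numbered 6 and 7, 0 of the 24 ATF4 targets were called without the block and 15 with it, with medians of 0.29 and 0.30. Leaving out those libraries did not remove the marker differences: all 10 macrophage and all 10 endothelial markers were still called higher without the block (medians 6.52 and 6.27). Over the members, 0 of 31 were called without the block (edgeR, 0 at an unadjusted p below 0.05) and 4 with it (Atf6, Ddit3, Trib3 and Sesn2). Without pairs 1, 6 and 7 together, which leaves 4 pairs, 7 of the 24 targets were called. The part of RNA from macrophages, endothelial, acinar, beta and delta cells in these results was not tested.

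**Figure D4:**
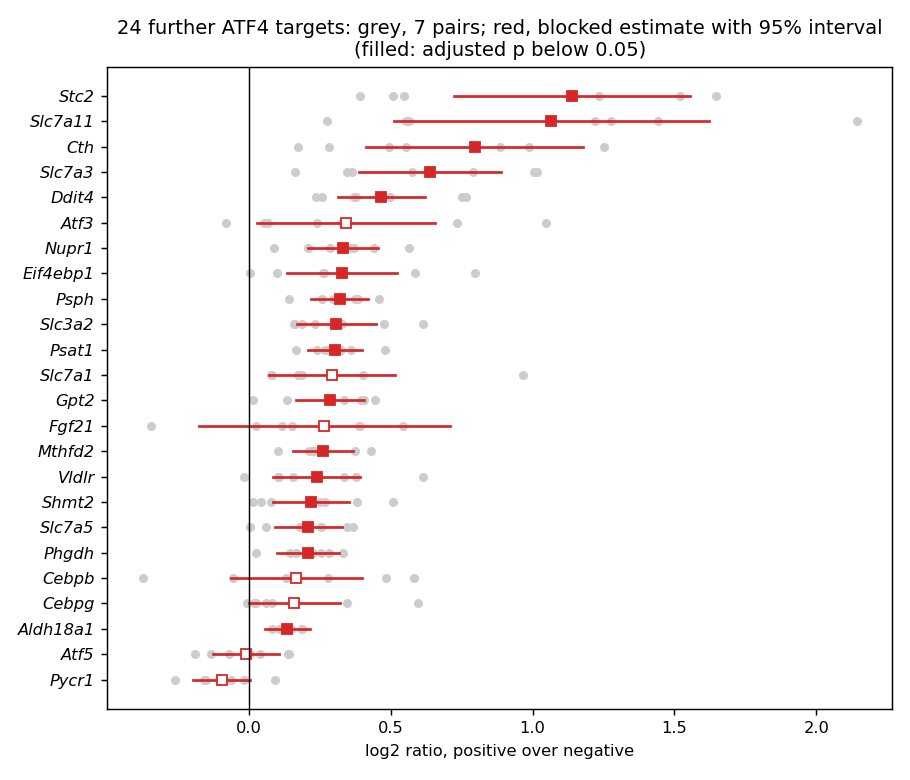
Log2 ratio of positive over negative level (horizontal axis) of 24 further ATF4 targets. Grey points are the 7 pairs (0.5 CPM added to each level), red squares the estimates with the replicate number as a block, with 95% intervals, filled for the 17 targets called. Stc2 and Slc7a11 have the largest estimates, 1.14 and 1.07, and Atf5 and Pycr1 lie below 0.

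Of 27 further folding and glycan-control genes, 0 were called without the block (2 at an unadjusted p below 0.05) and 1 fell with it (median −0.00 in the fit without the block). That is 3.7%, against 7.77% of all genes called lower with the block. The gene that fell was Uggt2, a sensor of misfolded glycoproteins, from 23.5 ± 3.29 to 19.3 ± 2.7 CPM, lower in all 7 pairs (−0.28 ± 0.06, adjusted p = 0.00747 with the block, 0.113 without). Fkbp14, a prolyl isomerase, had the next lowest adjusted p without the block (−0.17 ± 0.07, adjusted p = 0.187). Of 19 measured genes of ER-associated degradation, 0 were called in either fit (median 0.05; 0 at an unadjusted p below 0.05, and 3 with the block), with Derl1 (0.11 ± 0.07) and Ube2g2 (0.12 ± 0.07) closest. Of 20 genes of the translocon, 0 were called in either fit (median −0.00, and 0 at an unadjusted p below 0.05 in both), with Serp1 (0.09 ± 0.09) and Srp54a (−0.11 ± 0.11) closest. Of all genes tested, 8.03% were called in either direction without the block and 19.6% with it.

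Of 14 genes of the eIF2 kinases and the eIF2 machinery, 0 were called in either fit (median 0.07; 1 at an unadjusted p below 0.05, and 2 with the block). The shares of all genes called were 8.03% without the block and 19.6% with it. DESeq2 called 0 of these 80 genes of folding, degradation, translocon and eIF2. Ppp1r15b, the constitutive eIF2 phosphatase subunit, had ratios above 0 in all 7 pairs (0.17 ± 0.08, adjusted p = 0.201; 0.0633 with the block), and Eif2ak4, the kinase that senses uncharged tRNA, had 0.10 ± 0.05 (adjusted p = 0.301). Of 13 measured further stress transducers 1 rose in both fits, 7.69%. Of all genes, 6.4% were called higher without the block and 11.8% with it. The transducer that rose was Nfe2l2, which encodes NRF2, a factor of antioxidant defence that PERK can phosphorylate and that also induces Slc7a11. Nfe2l2 went from 44.9 ± 4.68 to 64.5 ± 9.65 CPM, with positive 6 and 7 highest (0.52 ± 0.09, adjusted p = 0.00138). Its groups did not overlap (positive higher, as for 3.5% of all genes).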

How the data were processed

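Reads were placed on GRCm38 with Subread and counted per gene with featureCounts, per the series' design text. The authors deposited whole-number, unnormalized counts, 1 value for each gene and library. Versions, annotation, strand setting and the treatment of multi-mapping reads are not given in the sources used here. Columns were matched to samples by the column name in each label.

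Counts were tested with edgeR 4.0.16 in R 4.3.3 (filterByExpr, leaving 16350 genes; TMM factors 0.969 to 1.03; robust quasi-likelihood F-test; two-sided; Benjamini-Hochberg adjustment over all genes). Standard errors come from the F statistic, and CPM from the scaled library sizes; within-pair log2 ratios add 0.5 CPM. The fit on group alone is the main one. Same-numbered libraries deviated from their group means together (correlation across genes 0.203 to 0.541 in all 7 pairs, median −0.125 between different numbers). For negative 3 (0.203) and negative 7 (0.334), a positive library of another number correlated more highly. Centring on group means also pushes values between different numbers below 0 when same-number values are above it. The numbers in the titles were taken to pair the libraries, which the labels do not state. A blocked fit on these numbers stands next to the main one in the text. Scripts were tested on simulated counts. DESeq2 1.42.0, other scalings, no filter and left-out libraries were tried.

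The members and lists were chosen with earlier results of these data known. Named were all members called in either fit, 10 hallmark genes, and from each wider list the called genes or the 2 with the lowest adjusted p; targets called only with the block were all named after their values were seen. Positions and exon lengths come from GENCODE M21 (GRCm38), promoters from RefSeq (GRCm38.p6). Atf6, Hyou1 and Manf had no promoter entry, and Ero1l was matched as Ero1a. Printed sites have 20 bases on each side, or at most 30 bases in all where the longer stretch would touch an annotated exon. The shorter stretches of Hspa5 and Asns still touch one.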

Additional observations from a re-analysis of the deposited data

Results flagged for a closer look

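In each group of 7, and over the 7 within-pair log2 ratios, the highest and lowest value of every member were compared with their nearest neighbour by Dixon's gap test (critical value 0.568). None of the 62 sets of levels stood out, and 5 of the 31 sets of pair ratios did. All 5 were the pair numbered 1: Eif2ak3 (log2 ratio 0.850, next highest 0.102), Ppp1r15a (0.761, next 0.264), Ern1 (0.654, next 0.141), Herpud1 (0.618, next 0.205) and Xbp1 (0.321, next 0.0421). Chance flags about 1 in 20 sets, and the members share their libraries, so the 5 are not independent of each other.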

How the results depend on the processing

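Of the 31 members, 30 had at least 5 in average log2 CPM, and Derl3 had the fewest reads. No member was called, higher or lower, without the block under RLE or upper quartile factors, no filter, DESeq2 or any left-out library. Over all genes, 1313 calls became 3200 with the replicate block, 2064 with DESeq2, 581 without the libraries numbered 6 and 7, and 965 to 1883 with 1 library left out. Members called higher went from 0 to 7 with the replicate block, and to 3 to 6 with 1 pair left out as well (2832, 2351, 3849, 2472, 2389, 2174 and 2342 genes without pairs 1 to 7). With the block and a further choice they were 6 (upper quartile, 3247 genes), 4 (no filter, 3429 genes), 7 (RLE, 3221 genes), 4 (without 6 and 7) and 2 (without 1, 6 and 7), all added after the data were seen. The wider ATF4 targets called higher went from 2 to 17 with the block (12 to 16 with a pair left out, 13 without pair 5 and 14 without pair 6; 17, 16, 17, 15 and 7 in the same further fits). Without the block they were 1 with no filter, 4 with DESeq2, 0 without 6 and 7, and 1 to 3 with 1 library left out. The branch medians moved by less than their spread over pairs, over 0.0798 to 0.194 for ATF4, 0.0549 to 0.168 for ATF6 and −0.0273 to 0.0817 for XBP1 with 1 library left out.

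Signs turned only for uncalled genes. Edem1 was 0.00181 with the replicate block. Xbp1 was −0.000713 with upper quartile factors and −0.00791 with no filter (−0.00426 blocked), and Syvn1 −0.00182 with no filter (−0.00266 blocked). Dnajc3 was −0.00291 and −0.00754 with the block and upper quartile factors or no filter. Without 6 and 7, Dnajc3 was −0.00522 and Atf5 0.0230, and with the block Dnajc3 was −0.0170, Manf −0.0113 and Atf5 0.0228. Without 1, 6 and 7, the turned estimates were Derl3 −0.259, Manf −0.0892, Dnajc3 −0.0868, Syvn1 −0.0812, Eif2ak3 −0.0749, Pdia6 −0.0542, Xbp1 −0.0502, Pdia3 −0.0475, Dnajb9 −0.0456, Canx −0.0361, Hyou1 −0.0325, Creld2 −0.0217 and Atf5 0.0413. With the replicate block and 1 pair left out, they were without pair 1 Eif2ak3 −0.0838, Syvn1 −0.0483, Xbp1 −0.0360, Dnajc3 −0.0264, Chac1 −0.0207 and Manf −0.0147, without pair 3 Dnajc3 −0.00355 and Syvn1 −0.000551, without pair 6 Dnajc3 −0.000618, without pair 7 Atf5 0.0195, and for Edem1 0.0423, 0.00608 and 0.000446 without pairs 2, 5 and 7. With 1 library left out and no block, the ranges that crossed 0 were Ern1 −0.0204 to 0.141, Eif2ak3 −0.0902 to 0.0661, Xbp1 −0.0435 to 0.0327, Pdia4 −0.111 to 0.0144, Hyou1 −0.0122 to 0.111, Manf −0.0625 to 0.1000, Dnajc3 −0.0612 to 0.0542, Pdia6 −0.0352 to 0.135, Edem1 −0.0783 to 0.0344, Syvn1 −0.0282 to 0.0515, Chac1 −0.0251 to 0.133, Ppp1r15a −0.0424 to 0.134, Canx −0.0176 to 0.0580 and Atf5 −0.0440 to 0.00779. The cause was not tested.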

Other observations

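Many folding genes were highest in the same positive libraries, those whose pairs also had the largest ATF6 branch ratios. For 14 of the 19 members of the ATF6 and XBP1 branches and the calnexin cycle (73.7%), the 3 highest positive libraries were numbers 1, 6 and 7, as they were for 1 of the 12 sensors, transcription factors and ATF4 branch members, 6 of the 24 further ATF4 targets and 6.91% of all genes tested. These libraries were chosen after the values were seen, so the counts are a description. Summed acinar markers were 982, 45.9 and 66.5 CPM in positive 1, 6 and 7, macrophage markers 95.9, 585 and 412 CPM, and endothelial markers 529, 1169 and 1127 CPM. Their part in the pattern was not tested.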
